A study of Mus musculus with 12 samples.

Results

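The promoters of the mouse zinc finger genes named Zfp with a number of 600 to 999 were read in ATAC-seq peak lists of 2 mouse tumour lines. Every protein-coding gene of that name, with or without a letter suffix, was taken from GENCODE release M21, which gave 182 genes out of 21938 protein-coding genes on the 21 assembled chromosomes. The rule reads gene names and no measured value, but the genes were chosen with earlier results of these data known. ATAC-seq marks open chromatin by the sites where a transposase can insert sequencing adapters. The lines were 4T1, a mammary carcinoma line derived from a BALB/c mouse, and B16F10, a melanoma line derived from a C57BL/6 mouse, the strain of the reference genome. 4T1 cells were treated for 48 h with decitabine (DAC) at 1 µM, and B16F10 cells for 48 h with DAC at 0.1 µM. DAC is a cytidine analogue that depletes DNA methyltransferases by trapping them on newly made DNA. Each treated group had a control group of the same line without DAC, and each of the 4 groups held 3 libraries. Dead cells were removed with beads before transposition, and nothing in the labels says that the replicates came from separate cultures, so the spread between them may be technical.

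Most genes of this name encode C2H2 zinc finger proteins, and many of these carry a KRAB domain. A KRAB zinc finger protein binds DNA through its finger array and brings in TRIM28, which gathers SETDB1, HP1 proteins and histone deacetylases and so silences retrotransposons and other targets. The genes arose by repeated duplication and stand in arrays on a few chromosomes, so neighbouring members often share sequence.

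The results turn on a few promoters whose peak calls differed between treated and control cells, and their sequences are shown so that their CpG content can be seen. The first 5 are RefSeq promoters (build GRCm38.p6, 250 bases before to 50 bases after the transcription start, read along the gene), with each CG in capitals. Zfp677 (chr17:21383498-21383797, plus strand) and Zfp819 (chr7:43606919-43607218, plus strand) had a peak in DAC-treated and not in control 4T1 cells, as did Zfp872 (chr9:22187916-22188215, plus strand). Zfp773 (chr7:7136706-7137005, minus strand) had one in DAC-treated and not in control B16F10 cells. Zfp677 also had a peak in every B16F10 library, and Zfp773 in every 4T1 library. Zfp979 (chr4:147642459-147642758, minus strand) is a CpG-poor promoter of the chromosome 4 array. It was called in 3 of 3 DAC and 1 of 3 control 4T1 libraries, whereas 11 of the array's 17 members were called in no library. Of the 50-base words within 1000 bp of its 5′ end, 96.0% occur elsewhere in the assembly. The last sequence is not a promoter of a member: it is the plus strand of chr4:146067155-146067454 around the summit of a peak at the processed pseudogene Gm13034, inside the same array (build GRCm38).
Zfp677: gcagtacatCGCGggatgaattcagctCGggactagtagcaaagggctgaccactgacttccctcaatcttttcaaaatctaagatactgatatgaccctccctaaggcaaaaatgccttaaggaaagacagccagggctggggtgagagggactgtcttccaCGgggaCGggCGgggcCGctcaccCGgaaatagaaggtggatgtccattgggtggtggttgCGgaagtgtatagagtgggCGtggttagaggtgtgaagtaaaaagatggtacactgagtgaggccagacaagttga
Zfp773: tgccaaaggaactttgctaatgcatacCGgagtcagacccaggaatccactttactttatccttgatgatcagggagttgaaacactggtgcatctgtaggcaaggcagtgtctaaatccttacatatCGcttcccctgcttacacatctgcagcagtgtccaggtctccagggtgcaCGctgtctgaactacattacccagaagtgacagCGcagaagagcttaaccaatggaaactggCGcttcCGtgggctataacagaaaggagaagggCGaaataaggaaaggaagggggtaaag
Zfp819: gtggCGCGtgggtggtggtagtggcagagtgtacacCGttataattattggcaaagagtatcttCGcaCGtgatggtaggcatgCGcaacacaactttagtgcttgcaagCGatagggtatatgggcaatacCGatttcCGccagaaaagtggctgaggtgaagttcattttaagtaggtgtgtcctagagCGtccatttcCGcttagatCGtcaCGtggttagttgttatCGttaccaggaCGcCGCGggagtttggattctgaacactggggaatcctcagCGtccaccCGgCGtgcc
Zfp872: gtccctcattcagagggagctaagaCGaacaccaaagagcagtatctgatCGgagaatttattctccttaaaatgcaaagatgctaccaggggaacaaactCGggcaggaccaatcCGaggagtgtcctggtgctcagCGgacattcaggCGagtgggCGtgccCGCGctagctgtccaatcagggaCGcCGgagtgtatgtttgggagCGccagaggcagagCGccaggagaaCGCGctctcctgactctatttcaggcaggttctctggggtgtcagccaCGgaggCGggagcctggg
Zfp979: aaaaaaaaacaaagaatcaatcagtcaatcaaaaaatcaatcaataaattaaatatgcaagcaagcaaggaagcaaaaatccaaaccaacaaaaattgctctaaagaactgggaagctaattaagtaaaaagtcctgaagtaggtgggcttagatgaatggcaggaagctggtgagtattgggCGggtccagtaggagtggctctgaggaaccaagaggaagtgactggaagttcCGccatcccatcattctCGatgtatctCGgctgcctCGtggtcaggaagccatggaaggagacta
Gm13034: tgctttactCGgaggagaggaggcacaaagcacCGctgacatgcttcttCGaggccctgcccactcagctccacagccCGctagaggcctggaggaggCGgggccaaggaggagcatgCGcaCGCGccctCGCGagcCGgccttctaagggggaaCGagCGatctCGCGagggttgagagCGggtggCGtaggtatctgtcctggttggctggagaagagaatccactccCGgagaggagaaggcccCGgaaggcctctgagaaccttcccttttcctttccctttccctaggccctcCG
The Zfp819 stretch held 20 CpG sites, as did the one at Gm13034, Zfp872 held 17, Zfp677 held 10, Zfp773 held 7 and Zfp979 held 5. The Zfp872 stretch overlaps only the first bases of that gene's called region, chr9:22188180-22188556, and the peak summits lay outside it. Its 17 sites thus describe the promoter and not the peak. The E-box CACGTG, searched on both strands, lay 2 times in the Zfp819 stretch and in none of the other 4 promoters, and 7.15% of 32851 RefSeq promoters of this length held it. The letters CCAAT lay on either strand in all 5 promoters, against 37.4% of the RefSeq promoters. GGGCGG lay in Zfp677 and Zfp979, against 35.7%. A match of letters says nothing of binding.

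Each library had its own peak list from the authors, and the lists held 49622 to 118603 peaks on the assembled chromosomes. Read totals were not used here, so depth is unknown beyond the peak counts. The list of B16F10 DAC replicate 2 held no peak on unplaced or patch scaffolds, whereas those of the other 11 libraries did. Every count of calls in DAC-treated B16F10 alone, with that of Zfp773, uses that library. A gene was called in a library when a peak overlapped the window of 1000 bp to either side of its annotated 5′ end, and an open promoter below means a called one. A call in DAC or in controls alone refers to the libraries of the line named and not to the other line. Fold enrichment and −log10 q of a peak are the authors' values and describe it within its own list. The strength percentile of a peak is the rank of its −log10 q in its own library, so that 100 is the strongest, and percentiles from lists of unlike length show no change. Marker promoters followed the line labels: 7 of 7 mammary epithelial promoters were called in all 6 4T1 libraries and 0 of 7 in all 6 of B16F10, and 2 of 7 melanocyte promoters in 4T1 and 6 of 7 in B16F10. Of 4 leukocyte markers, 0 were called in all 6 libraries of either line, and Spi1 was called in the 3 4T1 controls alone.

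The zinc finger promoters were mostly open in both lines, with or without DAC. In 4T1, 146, 147 and 146 of the 182 were called in the DAC libraries, against 142, 140 and 141 in the controls. The DAC mean of 146.3 ± 0.58 stood above the control mean of 141.0 ± 1.0 (SD, n = 3), and the groups did not overlap. In B16F10, 129, 134 and 133 were called in the DAC libraries, against 130, 128 and 131 in the controls, and the groups overlapped. As shares, 80.4% ± 0.32 of the zinc finger promoters were called in DAC-treated 4T1 and 77.5% ± 0.55 in 4T1 controls, where all protein-coding genes stood at 61.6% ± 0.62 and 56.4% ± 0.22. The corresponding shares in B16F10 were 72.5% ± 1.5 with DAC and 71.2% ± 0.84 without, where all genes stood at 50.3% ± 0.43 and 49.6% ± 0.19. The ratio of DAC to control was 1.04 for the zinc finger genes and 1.09 for all genes in 4T1, and 1.02 and 1.01 in B16F10. No test was run over the 182 genes, and the 3 against 3 libraries of a line cannot go below an exact two-sided permutation p of 0.10.

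**Figure D1:**
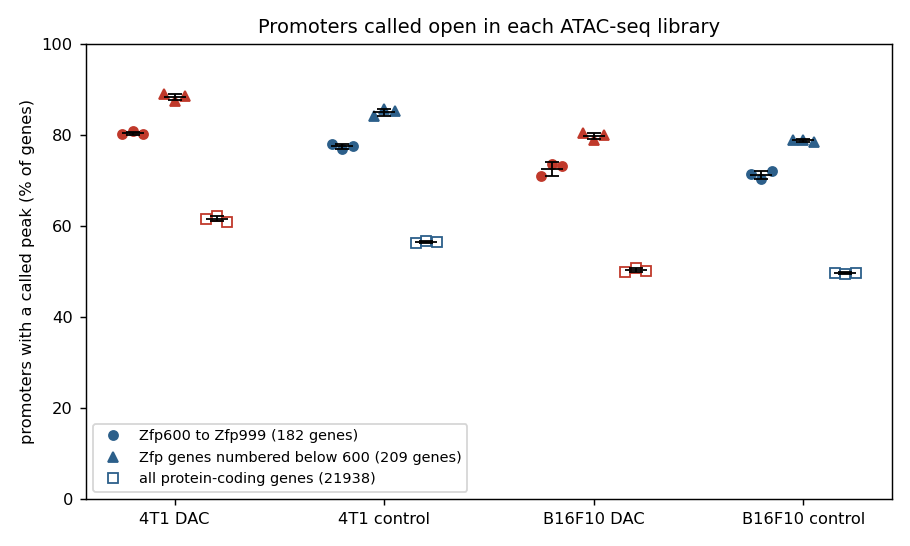
Share of promoters with a called peak (percent of genes, vertical axis) in each library of the 4 groups, for Zfp600 to Zfp999, for Zfp genes numbered below 600 and for all protein-coding genes; points are libraries and bars are mean ± SD of 3 libraries. The zinc finger genes stand between 70.3% and 80.8%, above all protein-coding genes in each of the 12 libraries, and within 4T1 the DAC points of each gene set lie above the control points.

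Call patterns over the 12 libraries were simple. A peak was called in all 12 libraries at 126 of the 182 promoters (69.2%, where 45.8% of all genes had one) and in none at 27 (14.8%, where 32.3% of all genes had none). Within a line, 139 were called in all 6 4T1 libraries (76.4%, background 54.4%) and 128 in all 6 B16F10 libraries (70.3%, background 48%). No library of the line had a peak at 32 in 4T1 (17.6%, background 34.8%) and at 46 in B16F10 (25.3%, background 47.1%). Of the 209 Zfp genes numbered below 600, 175 (83.7%) were called in all 6 4T1 and 163 (78.0%) in all 6 B16F10 libraries, and their difference from the members was not tested. The remaining 29 members were called in 1 to 11 libraries, and 11 of these differed between the lines and not within either. Peaks stood close to the gene starts: over the 155 members with a peak, the summit lay within 250 bp of the 5′ end in 124 (80.0%).

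Many of the zinc finger promoters were called at low CpG density. Their windows held a median of 2.45 CpG per 100 bp, against 3.05 for all protein-coding genes, and 18.7% were island-like (observed to expected CpG above 0.6 and GC above 50.0%), against 29.8%. All promoters were split into 5 equal bins by CpG density, with bin 1 the lowest. In bin 2, 43 of 60 zinc finger promoters (71.7%) were called in all 6 4T1 libraries, against 24.0% of the other genes. B16F10 gave 63.3% against 17.3% there. In bin 3, 56 of 60 (93.3%) were called in all 6 4T1 libraries, against 71.8% of the other genes. In B16F10 the shares there were 86.7% and 62.9%. In bin 1, with up to 0.90 CpG per 100 bp, 1 of 19 was called in all 6 libraries of each line (5.26%), against 5.58% of the other genes in 4T1 and 2.82% in B16F10. The 126 members called in all 12 libraries had a median of 2.95 CpG per 100 bp and the 27 never called had 0.90. The gap in bins 2 and 3 is a description of these genes and was not tested.

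**Figure D2:**
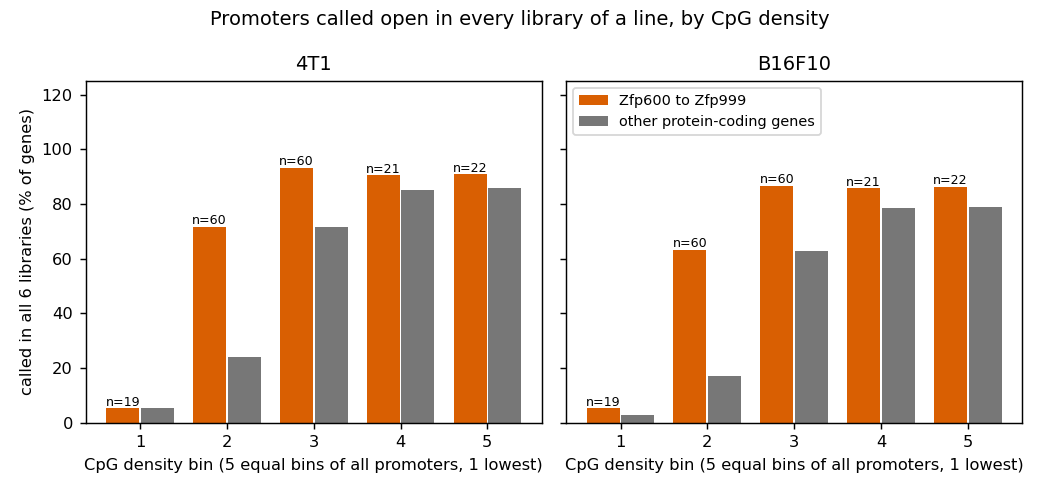
Share of promoters called in all 6 libraries of a line (percent of genes, vertical axis) by bin of CpG density (5 equal bins of all promoters, 1 lowest), for Zfp600 to Zfp999 and for the other protein-coding genes, with 4T1 in one panel and B16F10 in the other; n is the number of zinc finger genes. The zinc finger bars stand above the others in bins 2 to 5 of both lines, by most in bin 2, at 71.7% against 24.0% in 4T1.

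Among the members called in all 12 libraries, the 5 of highest strength were Zfp654, Zfp959, Zfp706, Zfp868 and Zfp956. Zfp654 had percentiles between 98.7 and 99.6 over the 12 libraries, but its window on chromosome 16 also holds the 5′ end of Cggbp1, so its peak cannot be given to either gene. Zfp959 on chromosome 17 ranged from 98.5 to 99.7. Zfp706, whose product restrains Klf4 in mouse embryonic stem cells, ranged from 98.4 to 99.5. Zfp868 ranged from 98.3 to 99.8 with only 2.75 CpG per 100 bp, below the median of all genes. Zfp956 ranged from 97.3 to 99.3, with fold enrichments of 17.5 to 22.2. Over the 126 members, the lowest of the 12 percentiles had a median of 79.9 and a range of 2.21 to 98.7. The 18 members with another gene's 5′ end in their window, 8 of them another member, were each called in all 12 libraries.

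Of 16 genes fixed by name, most of them for a known role, 7 were called in all 12 libraries, against 69.2% of all members. Zfp809, which recognises the primer binding site of Moloney-type retroviruses and recruits TRIM28 in mouse embryonic stem cells, was called in all 12 libraries. So were Zfp932, which binds endogenous retroviruses in those cells, and Zfp638, whose human counterpart silences unintegrated retroviral DNA. The same held for Zfp609, Zfp644, Zfp703 and Zfp827. Zfp703, a gene whose human counterpart is amplified in luminal breast cancer, had 7.45 CpG per 100 bp, and Zfp809 had 3.05. Zfp750, a regulator of epidermal differentiation, was called in 3 of 3 DAC and 2 of 3 control 4T1 libraries and in 0 of 6 B16F10 libraries. Zfp683 (Hobit), a regulator of tissue-resident lymphocytes, was called in 0 of 6 4T1 libraries, in 0 of 3 DAC B16F10 libraries and in 1 of 3 B16F10 controls. The chromosome 4 members Zfp600, Zfp981, Zfp982, Zfp989 and Zfp990 were called in none of the 12.

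Few of these promoters were called in DAC alone, and most were called in a control and could not gain a call. In 4T1, 3 of the 182 (1.65%) were called in all 3 DAC libraries and no control, where 4.22% of all genes were. Counted among genes without a control call, which alone could gain one, these were 3 of 39 (7.69%), against 9.93% of all such genes. Of the 39, 17 lay in CpG bin 1, where 0 gained a call, against 1.08% of such other genes. The counts were 1 of 15 in bin 2 (other genes 4.08%) and 2 of 3 in bin 3 (15.3%). They were 0 of 2 in bin 4 (37.0%) and 0 of 2 in bin 5 (66.8%). In B16F10 the count called in DAC alone was 1 of 182 (0.549%), where the background was 0.228%. Among genes without a control call it was 1 of 51 (1.96%), against 0.464% of all such genes. Called in the 3 controls alone were 0 members in 4T1 (background 0.419%) and 0 in B16F10 (background 0.0684%). These shares rest on 3 genes in 4T1 and 1 gene in B16F10. Each gene's 12 calls were tested over both lines with an exact permutation test, two-sided, in which DAC and control labels were exchanged inside each line and which has a smallest p of 0.005. Of 4797 genes with a call in 1 to 11 libraries, 0 passed after Benjamini-Hochberg adjustment and 16 (0.334%) had an unadjusted p under 0.05, and of the 29 members among them 0 did. The smallest p needs 3 against 0 calls in the same direction in both lines, which 6 genes had. That is too few for any to pass the adjustment, so the 0 does not show an absence of change. A gene with equal calls in all libraries of 1 line, such as Zfp677, cannot go below 0.10 in this test.

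Zfp677 was the strongest of the 4. Its promoter had a peak in the 3 DAC-treated 4T1 libraries with fold enrichments of 14.1, 15.6 and 14.5 and percentiles of 75.2, 78.9 and 75.5, and no peak in the 3 4T1 controls. The merged region was chr17:21383342-21384196, and the summit lay 36 bases upstream of the 5′ end in each library, inside the sequence shown. In B16F10 the same promoter was open in all 6 libraries, with percentiles of 91.2, 90.1 and 85.8 after DAC and 89.1, 86.3 and 84.4 in the controls. The call in DAC-treated 4T1 thus stood at a promoter that B16F10 cells had open without treatment. Zfp677 is the first gene of an array on chromosome 17, where 11 of 14 members were called in all 12 libraries. It was the 1 member of the 4 whose call stayed when peaks had to have a fold enrichment of at least 5.

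Within B16F10, Zfp773 was the 1 member called in all DAC libraries and in no control. It was called in the 3 DAC-treated B16F10 libraries, with fold enrichments of 6.15, 4.99 and 5.66 and percentiles of 29.3, 19.4 and 26.0, and in none of the B16F10 controls. In 4T1 it was called in all 6 libraries, with percentiles of 47.9, 41.6 and 24.9 after DAC and 10.5, 7.48 and 23.3 in the controls. The B16F10 region was chr7:7136477-7136847. Each of these 9 peaks ranked below the median of its own library. With every list cut to the same number of peaks in all 12 libraries, Zfp773 was called in 0 of 3 DAC and 0 of 3 control 4T1 libraries, and still in 3 of 3 DAC and 0 of 3 control B16F10 libraries. Where peaks needed a fold enrichment of 5 or more, it was called in 2 of 3 DAC and 1 of 3 control 4T1 libraries, and in 2 of 3 DAC and 0 of 3 control B16F10 libraries. Its openness in 4T1 thus depends on where a list ends. A second region inside the gene, chr7:7130433-7130873, was also called in the 3 DAC-treated B16F10 libraries alone.

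Zfp819 and Zfp872 were called in DAC-treated 4T1 and in no other library. Zfp819, which is expressed in pluripotent and male germ cells, works with TRIM28 and represses retroelements in mice, had fold enrichments of 4.50, 4.00 and 3.82 and percentiles of 29.02, 25.6 and 18.4. Its region, chr7:43607036-43607236, was 1 of 26 to 28 peaks per DAC library in an array of 8 members. Zfp872 had fold enrichments of 2.91, 2.54 and 3.31 and percentiles of 16.03, 9.66 and 19.9, with the summit 325, 232 and 375 bases downstream of the 5′ end. Its region was chr9:22188180-22188556, and the summits lay outside the sequence shown. Zfp872 had a peak in 2 of 3 DAC libraries where −log10 q had to reach 5, and in 1 of 3 where each 4T1 library was cut to the same number of peaks. With the same number of peaks in all 12 libraries, neither Zfp819 nor Zfp872 had a peak in any 4T1 library, and Zfp677 kept its 3 DAC calls and no control call.

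Other members came close to these patterns and are named after their values were seen. Zfp940 was called in 2 of 3 DAC and 0 of 3 control B16F10 libraries and in all 6 4T1 libraries, and 1 of its B16F10 calls came from the library without scaffold peaks. Zfp804a, whose human counterpart is a schizophrenia risk gene, was called in 2 of 3 DAC and 0 of 3 control 4T1 libraries, with percentiles of 19.5 and 13.8. Zfp978, in the chromosome 4 array, was called in 2 of 3 DAC libraries of each line and in no control, but 95.4% of the 50-base words in its window occur elsewhere in the assembly and 1 of its B16F10 calls came from the library without scaffold peaks. Without B16F10 DAC replicate 1, 3 members rather than 1 were called in DAC alone, because Zfp940 and Zfp978 then joined Zfp773, and the count over all genes was 101 rather than 50. At other annotated starts, Zfp708 and Zfp936 had a peak in the 3 DAC-treated 4T1 libraries and in no 4T1 control, and Zfp708 had one there in all 6 B16F10 libraries. Counted over every annotated start, 5 members (2.75%) were thus called in DAC-treated 4T1 alone, where 4.42% of all genes were. At any start, 131 members (72.0%) were called in all 12 libraries, where the background was 50.3%, and 21 (11.5%) had no call, where the background was 27.3%.

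**Figure D3:**
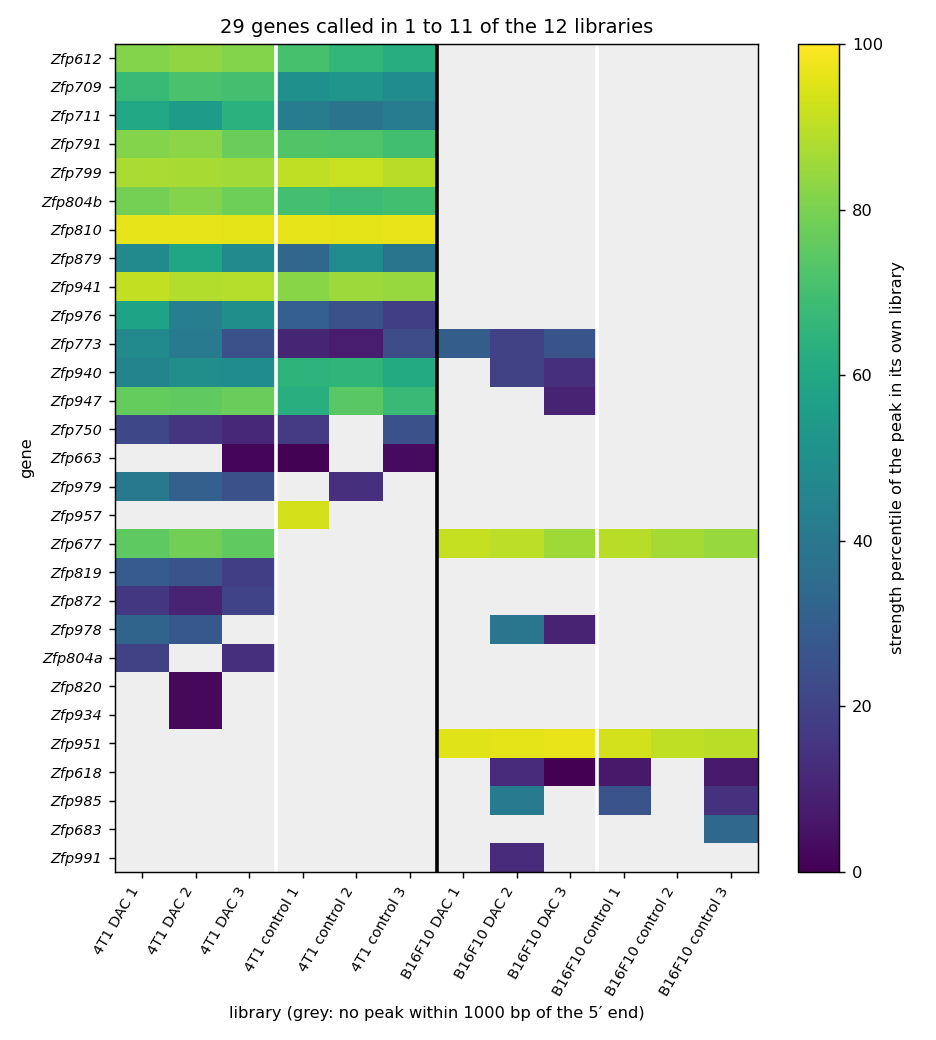
Strength percentile of the promoter peak (colour, 0 to 100 within each library) for the 29 zinc finger genes called in 1 to 11 libraries (rows) in the 12 libraries (columns, DAC before control within each line); grey means no peak. The 10 genes at the top are called in all 6 4T1 libraries and no B16F10 library, Zfp951 is the reverse, and Zfp677, Zfp819 and Zfp872 are filled in DAC-treated 4T1 and grey in 4T1 controls.

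The lines differed at more of these promoters than the treatments did. All 6 4T1 and 0 of 6 B16F10 libraries had a peak at 10 members (5.49%, background 6.44%): Zfp612, Zfp709, Zfp711, Zfp791, Zfp799, Zfp804b, Zfp810, Zfp879, Zfp941 and Zfp976. The reverse held for 1 member, Zfp951 (0.549%, background 0.985%). Zfp810 was the strongest in 4T1, with percentiles of 96.4, 96.4 and 95.9 after DAC and 96.4, 95.8 and 96.6 in the controls. Zfp951 on chromosome 5 had percentiles of 95.1, 95.9 and 96.6 in DAC-treated B16F10 and 93.0, 90.4 and 89.5 in B16F10 controls. Zfp711, an X-linked gene whose product binds active promoters and whose human counterpart is mutated in intellectual disability, had percentiles of 59.8, 55.4 and 63.7 in DAC-treated 4T1 and 41.9, 38.3 and 41.9 in 4T1 controls. Its window held 6.10 CpG per 100 bp, and DAC gave it no peak in B16F10. By their definition these patterns hold in the controls as well as in the treated cells. The lines also come from unlike strains, and line and strain cannot be told apart here. With the same number of peaks in all 12 libraries, 7 of the 10 kept the 4T1 pattern, and Zfp711, Zfp879 and Zfp976 did not, where the count over all genes was 975 rather than 1412.

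Of the 182 members, 98 lay in 13 arrays, taken as at least 4 members whose neighbouring 5′ ends were at most 500 kb apart, and 84 lay elsewhere. Chromosomes 7, 17 and 4 held 38, 24 and 20 members. In 4 arrays every member was called in all 12 libraries: both on chromosome 2, the one on chromosome 6 and one on chromosome 7 (chr7:127244274-127885996, 9 members). All 50-base words of the first chromosome 2 array's promoters also occur elsewhere in the assembly, and a median of 76.7% of those of the second, so that reads from these promoters may not be told from those of their copies. Over all members, 27 had more than 50% of their words elsewhere, of which 15 were called in all 12 libraries and 8 in none, against 111 and 19 of the other 155.

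**Figure D4:**
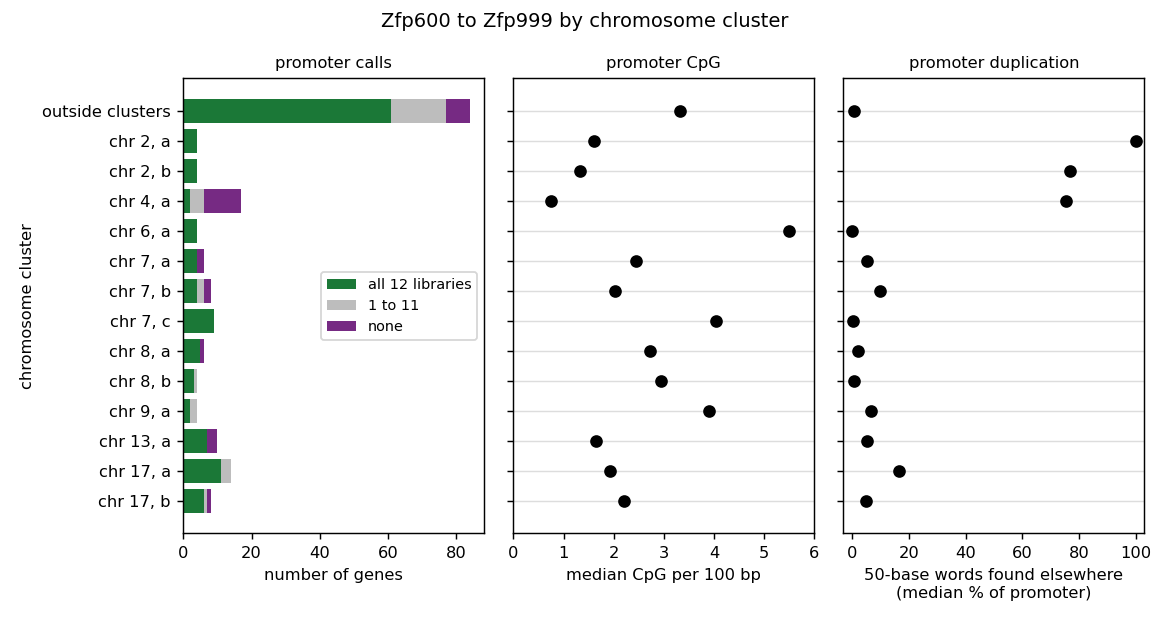
Number of zinc finger genes called in all 12, in 1 to 11 and in no library (bars), median CpG per 100 bp of their promoters, and median percent of promoter 50-base words found elsewhere in the genome, for the genes outside arrays and for the 13 arrays (chromosome and letter). The chromosome 4 array has 11 of 17 genes never called and the lowest median CpG, 0.75 per 100 bp, while both chromosome 2 arrays have every gene called with 100% and 76.7% of words found elsewhere.

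The chromosome 4 array had the fewest called promoters for its size. It spans 2.34 Mb (chr4:145510759-147848366) and holds 17 members. Arrays of KRAB zinc finger genes, one on chromosome 4 among them, have been deleted in mice to study retrotransposon control. A peak was called in all 12 libraries at 2 members, Zfp933 and Zfp984, and in none at 11. The promoter windows held a median of 0.75 CpG per 100 bp, and a median of 75.3% of their 50-base words occurred elsewhere in the assembly and the same share on patch scaffolds. Zfp979 was called in 3 of 3 DAC and 1 of 3 control 4T1 libraries, with percentiles of 40.5, 30.8 and 24.9 after DAC and 13.9 in the control. Of the 50-base words in its window, 96.0% occur elsewhere in the assembly, so its peaks may come from reads of a copy. Zfp991 was called in B16F10 DAC replicate 2 alone and Zfp985 in that library and in 2 B16F10 controls, so these 2 rest in part on the library without scaffold peaks.

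Between those uncalled promoters, DAC-treated 4T1 cells gained many peaks. Their 3 libraries had 73, 81 and 66 peaks in the interval, against 10, 10 and 12 in the 4T1 controls. The means were 73.3 ± 7.5 and 10.7 ± 1.2 (SD, n = 3), a ratio of 6.88 where the ratio of all peaks was 1.22. In B16F10, 7, 10 and 10 peaks after DAC stood against 9, 7 and 7 in the controls, with overlapping groups (4T1 had the higher dose and another strain). The interval was singled out after its values were seen, so no test is given. The other 12 arrays had ratios of 0.86 to 1.82 in 4T1, the highest for the first chromosome 8 array with 29, 32 and 30 peaks against 15, 19 and 16. The array's 4T1 ratio was 4.57 for peaks with −log10 q of at least 5, where the ratio of all peaks was 1.15. It was 3.37 where each library was cut to the same number of peaks, which sets the ratio of all peaks to 1. At a fold enrichment of 5 or more it was 2.91, where the ratio of all peaks was 0.956.

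**Figure D5:**
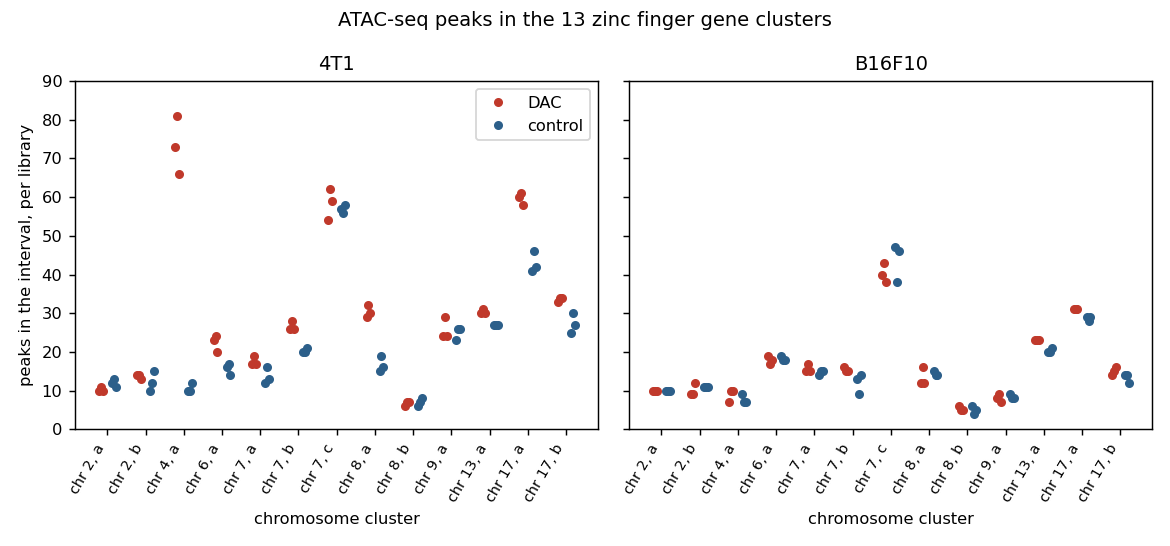
Number of peaks per library (vertical axis) in each of the 13 zinc finger gene arrays (chromosome and letter) in 4T1 and in B16F10; points are the 3 DAC and the 3 control libraries. In the chromosome 4 array of 4T1 the DAC points lie at 66 to 81 and the control points at 10 to 12, while in B16F10 all 6 points lie at 7 to 10.

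The regions gained in every DAC library lay outside the coding promoter windows. Merged over the 6 4T1 libraries, the interval held 111 regions, of which 33 (29.7%) were called in the 3 DAC libraries alone, where 12% of regions over the genome were, and 0 were called in controls alone, where the background was 3.57%. In B16F10 the interval held 13 regions, with 0 in DAC alone (background 2.26%) and 0 in controls alone (background 0.886%). In 4T1 another 18 regions were called in 2 DAC libraries and no control, and 46 in 1. Of these, chr4:147361233-147361489 at Zfp978 and chr4:145585215-145585479 lay in the promoter window of a protein-coding gene. Only 22 coding 5′ ends lie in the interval, so their windows cover little of it. Of the 33, none lay in such a window, and few would be expected there. The annotation places 11 of them on processed pseudogenes, which are copies of messenger RNA inserted into the genome: Gm13244, Gm13243, Gm13238, Gm13034, Gm13169, Gm13241, Gm13233, Gm20760, Gm13140, Gm13135 and Gm13161. These are 11 of the 45 processed pseudogenes in the array (24.4%), where the background over the genome was 1.32% in 4T1 and 0.0586% in B16F10, and in the other 12 arrays 0 of 57 were covered. The 11 regions had a median of 9.41 CpG per 100 bp and none was mostly repeat-masked, and 9 had an observed to expected CpG above 0.6 with GC above 50.0%. The strongest was at Gm13034 (chr4:146067050-146067863), with percentiles of 66.9, 73.4 and 76.2 and fold enrichments of 9.35, 10.7 and 12.2 in the 3 DAC libraries.

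The other 22 regions had a median of 1.95 CpG per 100 bp, and 12 of them were more than 50% repeat-masked. By the same CpG and GC limits 9 of the 22 (40.9%) were island-like, against 29.2% of the other 4T1 regions called in DAC alone. Among them, chr4:147738484-147739323 lay within 1000 bp of the start of the pseudogene Gm13136 and held 10.4 CpG per 100 bp. Inside member genes lay 3, of which 2 were in Zfp986 (chr4:145887197-145887993 and chr4:145888732-145889121) and 1 in Zfp933 (chr4:147838947-147839760, lowest percentile 78.2, the strongest of the 33). More than 50% of the 50-base words of 24 of the 33 regions (72.7%) occur elsewhere in the assembly, against 41.8% of the other 4T1 regions called in DAC alone. Peaks in such sequence may come from reads of another copy, and the part of this in the count was not tested. For the 9 regions below that share the median was 10.3 CpG per 100 bp, and their lowest percentiles ran from 0.24 to 69.8.

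Within the bodies of the 182 genes, outside coding promoter windows, 4T1 had 290 regions, of which 45 (15.5%) were called in the 3 DAC libraries alone, where 10.0% of such regions over all genes were. They lay in 30 members. Called in the 4T1 controls alone were 13 (4.48%), where the background was 4.14%. B16F10 had 166 such regions, of which 7 (4.22%) were called in DAC alone, where the background was 2.66%. They lay in 6 members. Called in the B16F10 controls alone was 1 (0.602%), where the background was 0.964%. Zfp827, whose human counterpart works at telomeres with the NuRD complex, held 4 of the DAC-alone regions in 4T1 and 2 in B16F10, and none of them was shared. It also held 1 region called in the 4T1 controls alone (chr8:79107245-79107532). Genes that overlap share regions, as Zfp934 and Zfp935 do on chromosome 13.

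Partners of KRAB zinc finger proteins and other silencing genes were mostly open in both lines. The list of 27 genes held TRIM28 and its relatives Trim24 and Trim33, SETDB1 and its partner Atf7ip, HP1 proteins, histone deacetylases, the HUSH complex, H3K9 methyltransferases and DNA methyltransferases with Uhrf1. It also held the chromatin factors Chd3, Chd4, Atrx, Daxx, Morc3 and Smarcad1. Of the 27, 23 were called in all 6 4T1 libraries, where 54.4% of all genes were, and 24 in all 6 B16F10 libraries, where 48% were. In DAC alone 0 were called in either line, where the backgrounds were 4.22% in 4T1 and 0.228% in B16F10. Only Trim28, Atf7ip and Dnmt1 had no control call and could gain one, where 9.93% of all such genes did in 4T1 and 0.464% in B16F10. Trim28 and Atf7ip had no peak at the annotated gene end and Dnmt1 had one in 1 DAC-treated 4T1 library alone. At any annotated start, all 27 were called in all 6 libraries of each line, where 59.3% of all genes were in 4T1 and 52.7% in B16F10.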

How the data were processed

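Peak lists of 12 ATAC-seq libraries were used, 3 DAC and 3 control for each line. Per the submitters' processing notes, the tools included Bowtie2, Picard and MACS2 and the build was mm10; options and versions are not given in the sources used here. The authors called peaks per library and deposited for each a score, a fold enrichment (a ratio), −log10 p-values and −log10 q-values, and the summit offset; every list ended at a q-value of 0.05. Distinct intervals on assembled chromosomes were kept. The genome was GRCm38, the assembly mm10 names, with GENCODE M21 genes, and coordinates count from 1. Regions are peaks of a line's 6 libraries merged where they overlap by at least 1 bp. Duplication is the share of a window's 50-base words found elsewhere on either strand. RefSeq promoters matched 154 of the 182 genes. Calls were tested by exact permutation with Benjamini-Hochberg adjustment, checked on simulated data. Named genes were those called in 1 arm alone, the 5 strongest called in all libraries, and 16 fixed by name. The genes and lists were chosen with earlier results of these data known. Python 3.11.15, numpy 2.4.6, pandas 2.3.3 and numba 0.67.0 were used. Alternatives were other thresholds, windows, starts, peak numbers, overlaps, a replicate block and each library left out.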

Additional observations from a re-analysis of the deposited data

How the results depend on the processing

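The count of members called in DAC-treated 4T1 alone, 3 as reported, was 1 at a fold enrichment of at least 5, and 5 with windows of 2000 bp, over every transcript start or with 2 of 3 libraries; it ran from 3 to 4 with 1 library left out. Over all genes the count was 926 as reported, 249 at that fold, 1017 with windows of 2000 bp, 969 over every start and 1255 with 2 of 3 libraries. Called in 4T1 controls alone was 0, but 1 (Zfp651) at that fold, where the count over all genes was 248 against 92 as reported. With the same number of peaks in all 12 libraries, Zfp677 alone was called in DAC-treated 4T1 alone, and Zfp940 in 4T1 controls alone. The B16F10 count of 1 became 0 at that fold and 3 with 2 of 3 libraries, and ran from 1 to 3 with 1 library left out; over all genes it was 50 as reported, 34 at that fold, 152 with 2 of 3 libraries and 101 without DAC replicate 1. The 4T1 difference of 5.33 members per library became 0.333 at that fold, 2.67 with equal numbers of peaks, 6.67 and 8.33 with windows of 500 and 2000 bp, 7.33 over every start and 6.33 by summits, and 4.83 to 5.83 with 1 library left out; over all genes it was 1139 as reported, -44 at that fold and 369.3 with equal numbers of peaks. The B16F10 difference of 2.33 reversed to -0.333 at that fold, where all genes gave 22 against 151.7 as reported, and ran from 1.33 to 3.83 with 1 library left out. Members open in B16F10 only were 1, and 2 at that fold (with Zfp605) or with the same number of peaks in all 12 libraries (with Zfp972); the last, leave-one-out runs of line patterns and all of the array's were chosen after seeing the data. The chromosome 4 array's 4T1 excess of 62.7 peaks became 35.7 at a −log10 q of at least 5, 14.0 at that fold and 23.7 with equal numbers of peaks, and ran from 58.8 to 66.3 with 1 library left out; its B16F10 excess of 1.33 ran from 0.833 to 2.33. The causes were not tested. Same-numbered libraries did not deviate together (correlations from -0.00048 to 0.030). The permutation test with a replicate block has 64 relabellings and a smallest p of 0.03125, so it could hardly pass a gene after adjustment. It gave 0 adjusted calls and 6 genes at an unadjusted p under 0.05, all at that smallest p, against 16 without the block. These counts cannot tell whether the block matters. Lists without read counts limit every result to presence of a peak at an unknown depth, so a weak peak near the q-value threshold may be absent from a list without being closed.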
